A study of Mus musculus with 6 samples.

Results

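The NRF2 pathway was described through 10 genes, taken by name as its regulators and best known targets, out of 21959 genes in the count table. They were Nfe2l2, which encodes NRF2, its repressor Keap1, the detoxifying enzymes Nqo1 and Hmox1, the glutathione genes Gclc, Gclm, Slc7a11 and Gsr, and the thiol enzymes Txnrd1 and Srxn1. All 10 passed the filter on low counts, with 84 to 9767 counts in a library.

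Poly-A RNA of a mouse gastric adenocarcinoma line was sequenced as 3 libraries of the parental cells, which the labels call MPC, and 3 of cells made resistant to paclitaxel (PTX), which they call MPC-PTX. The paper names the same lines MTC and MTC-R. Both lines carry CDH1-/-;Trp53-/-, made ex vivo in gastric organoids of a C57BL/6J mouse with floxed alleles of both genes (Trp53 flox/flox and Cdh1 flox/flox) and an inducible Cre, Mist1-CreER, driven by Mist1, a gene of secretory cells. The organoids were grown under the skin of BALB/c nude mice, and MPC was raised from that tumour as a single clone. MPC-PTX had in addition more than 30 cycles of PTX, an agent that stabilizes microtubules, and was again cloned, so each group stands for 1 clone and a difference between clones cannot be told apart from a difference made by the drug. The sources used here do not say whether PTX was in the medium at harvest, nor whether the 3 libraries of a line came from separate cultures. The p-values therefore measure the spread between these libraries, which may be technical. In bulk RNA, fewer cells of a type and less RNA per cell cannot be told apart.

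In unstressed cells KEAP1, an adaptor of a CUL3 ubiquitin ligase, binds NRF2 and has it degraded. When electrophiles or oxidants modify KEAP1, NRF2 accumulates, pairs with small MAF proteins and binds antioxidant response elements in front of genes for glutathione synthesis, thioredoxin reduction, NADPH supply and detoxification. Control of NRF2 is thus largely at the level of the protein, which RNA counts do not measure. Glutathione is built from cysteine, which many cultured cells take up as cystine through the transporter encoded by Slc7a11, and glutamate-cysteine ligase, with the catalytic subunit GCLC and the modifier subunit GCLM, carries out the first and rate-limiting step.

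The promoters of 3 genes are shown because their genes gave the largest rise, the largest fall and a fall opposite to that of its partner subunit. Each is the stretch of 250 bases before the start of the gene as the RefSeq window sets it (GRCm38.p6), written 5′ to 3′ on the strand of the gene, and capitals mark a match to 1 of 2 short motifs. The first motif, TGACNNNGC, is a form of the core of the antioxidant response element, and a form with TGAG in place of TGAC was not searched. The second, TGATGCAA, is the core of the amino acid response element bound by ATF4. Both motifs were searched on both strands, over 300 bases that also took in 50 bases from the start on. The Slc7a11 window lies at chr3:50443614-50443863 on the minus strand, the Gclm window at chr3:122245307-122245556 on the plus strand and the Nqo1 window at chr8:107403206-107403455 on the minus strand.
Slc7a11: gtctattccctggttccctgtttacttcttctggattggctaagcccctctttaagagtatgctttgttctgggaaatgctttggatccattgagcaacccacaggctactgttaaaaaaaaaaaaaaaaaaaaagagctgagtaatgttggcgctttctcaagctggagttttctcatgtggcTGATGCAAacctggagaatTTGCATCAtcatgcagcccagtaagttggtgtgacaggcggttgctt
Gclm: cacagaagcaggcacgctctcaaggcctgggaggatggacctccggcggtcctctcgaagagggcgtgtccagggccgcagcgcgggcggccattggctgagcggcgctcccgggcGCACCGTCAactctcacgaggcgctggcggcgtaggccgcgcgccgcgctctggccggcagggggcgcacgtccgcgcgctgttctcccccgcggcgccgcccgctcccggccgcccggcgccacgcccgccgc
Nqo1: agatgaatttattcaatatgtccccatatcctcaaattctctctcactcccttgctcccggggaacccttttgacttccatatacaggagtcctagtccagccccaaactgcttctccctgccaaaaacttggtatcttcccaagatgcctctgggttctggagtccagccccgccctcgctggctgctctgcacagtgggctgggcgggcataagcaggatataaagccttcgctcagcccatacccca

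The Slc7a11 window held the amino acid response element core 2 times, once on each strand, from 66 and from 47 bases before the start. That core was found in 0.895% of all 32851 RefSeq windows of the same length. Gclm held the antioxidant response element core once, on the opposite strand, from 134 bases before the start. Nqo1 held neither motif in this window, which says only that these letters are not in it. Slc7a11 held no match to TGACNNNGC, which likewise says nothing of the form that was not searched. Windows were at hand for 7 of the 10 genes, and 4 of these 7 (Nfe2l2, Gclm, Txnrd1 and Srxn1) had the antioxidant response element core, which 12.4% of all windows hold. In Nfe2l2 it began 240 bases before the start, in 1 of 3 Txnrd1 windows 92 bases before it, and in Srxn1 it lay 28 to 36 bases after it. Slc7a11 was the only 1 of the 7 with the amino acid response element core, and Keap1 had neither. The 12.4% is a share of windows and not of genes, and Txnrd1 had 3 windows. These genes were also chosen as NRF2 regulators and targets, so nothing was read from the difference between the shares. A match is a run of letters and not evidence that a factor binds there.

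Before the comparison, the libraries themselves were compared. They held 16574580 to 23148182 counts in 13897 to 14295 detected genes. The 3 MPC libraries differed more from each other than the 3 MPC-PTX libraries, with chi-square values per gene of 15 to 61.1 against 1.83 to 3.36, so no pair of libraries was within sampling noise. The library MPC replicate 3 stood apart, since its deviation from the mean of the other MPC libraries fell with the GC content of a gene (Spearman -0.61 across 11155 genes, which are not independent) and rose with transcript length (0.50). MPC replicates 1 and 2, each set against a mean that held replicate 3, rose with GC content (0.49 and 0.38) and fell with length (-0.46 and -0.22). Counts that the results lead with are therefore also given without MPC replicate 3. Levels are given as CPM, the usual unit of a gene's count relative to its library size, with library sizes scaled by the TMM method. Neither deleted gene passed the test between the lines, where Cdh1 had 132 to 136 CPM in MPC and 131 to 136 in MPC-PTX, and Trp53 had 3.25 to 5.76 and 5.86 to 6.59. Reads were summed over a whole gene, so these values do not check the deletions.

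Markers of gastric epithelium were few, and those detected differed between the lines. Of 11 markers of gastric epithelium, 9 had at most 7 counts in every library, and Tff1, Tff2, Gkn2 and Pgc had 0. The summed level of the gastric markers was 322 to 460.0 CPM in MPC, carried by Ctse and Anxa10, and 1.84 to 2.32 CPM in MPC-PTX. The 6 general epithelial markers, keratins among them, were detected in every library, at a sum of 7742 to 8925 CPM in MPC and 4497 to 4626 in MPC-PTX. The sums over 7 fibroblast markers (9.83 to 10.9 CPM in MPC, 8.63 to 9.92 in MPC-PTX), 6 leukocyte markers (11.2 to 12.8 and 9.74 to 10.4) and 5 endothelial markers (3.35 to 4.73 and 3.06 to 3.39) were low in both lines. The part of these markers in the results was not tested.

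Across the 10 genes, the difference between the lines was split. Slc7a11, Hmox1 and Gclc were higher in MPC-PTX, Nqo1, Gclm, Keap1 and Txnrd1 were lower, and Nfe2l2, Srxn1 and Gsr did not pass the test. Calls were made at an adjusted p below 0.05, from the quasi-likelihood test of edgeR with p-values adjusted after Benjamini and Hochberg over all 11795 genes tested, a rule that called 14.1% of all genes higher and 15.6% lower, or 29.7% in all. The 7 called genes of 10 make a larger share than that background, but the choice of the genes was not blind to these data and the share was given no test. Without MPC replicate 3 the count was 3 higher and 5 lower, in a setting that called 25.5% of all genes higher and 27.2% lower. Leaving out MPC replicate 2 or any of the 3 MPC-PTX libraries left 1 higher, Slc7a11, and 1 lower, Nqo1. Calls over all genes fell as well in these 4 settings, to between 6.66% and 7.88% higher and between 9.03% and 10.3% lower. The log2 fold changes of the other 5 genes moved little there, from -0.32 to -0.27 for Keap1, -0.36 to -0.33 for Gclm, 0.37 to 0.45 for Hmox1, 0.22 to 0.28 for Gclc and -0.23 to -0.18 for Txnrd1. The median log2 fold change of the 10 genes, MPC-PTX over MPC, was -0.08, against 0.04 for all genes tested. By the rule that the study used, a change of more than 1 on the log2 scale in either direction and a p below 0.05 before adjustment, Slc7a11 alone passed, where 3.77% of all genes passed as higher and 4.34% as lower. With the adjusted p in that rule, Slc7a11 again passed alone, beside 7.73% of all genes in either direction.

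**Figure D1:**
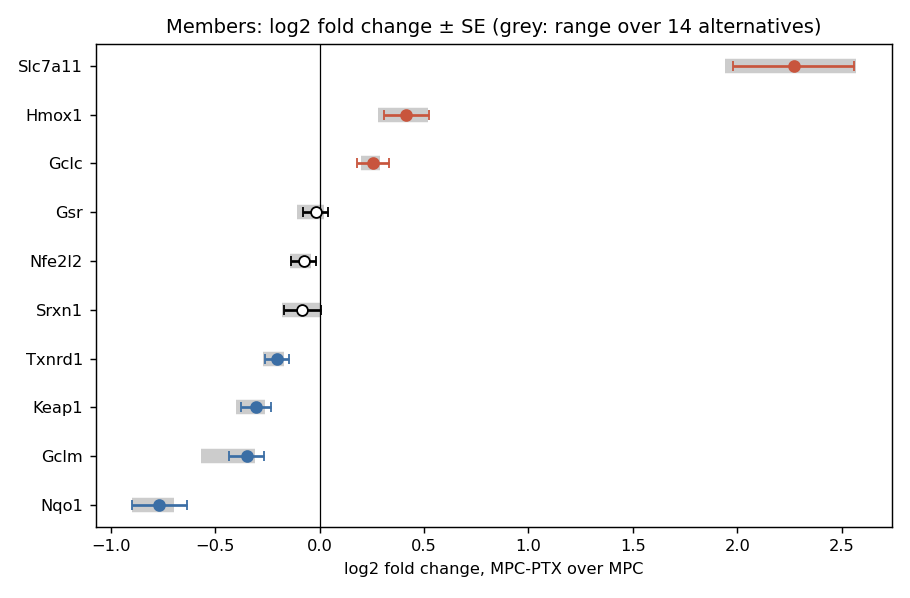
Points give the log2 fold change of each of the 10 genes, MPC-PTX over MPC, and bars its standard error, with filled points for an adjusted p below 0.05 (red higher, blue lower) and open points for the rest. Grey bands span the log2 fold change over 14 alternative analyses. Slc7a11 lies near 2.27 and Nqo1 near -0.77, and the other 8 lie between -0.35 and 0.42.

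Nfe2l2 (chromosome 2, 75675513 to 75704641, minus strand, GRCm38 as all positions) encodes the transcription factor NRF2 itself. Its RNA was at 163, 152 and 152 CPM in MPC replicates 1 to 3 and at 147, 146 and 149 in MPC-PTX. Each MPC-PTX library was below each MPC library, but by little, with means of 155 ± 6.67 (SD, n = 3) and 147 ± 1.80 and a log2 fold change of -0.08 (standard error, SE, 0.06, adjusted p = 0.372 by edgeR). Without MPC replicate 3 the gene was called lower, with a log2 fold change of -0.14 and an adjusted p of 0.0292 in the same edgeR test.

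Keap1 (chromosome 9, 21229730 to 21239361, minus strand), the adaptor that marks NRF2 for degradation, was lower. The CPM were 58.8, 61.2 and 55.1 in MPC and 46.5, 47.1 and 48.3 in MPC-PTX, so the lines did not overlap. The means were 58.4 ± 3.04 and 47.3 ± 0.959, a log2 fold change of -0.30 (SE 0.07, adjusted p = 0.0179 by edgeR). Keap1 lies among genes that were also mostly lower, since 50 genes tested within 1 Mb of it showed a median log2 fold change of -0.22, and 12 of them were above 0. The count of Keap1 was 0.360, 0.404 and 0.364 of that of Nfe2l2 in MPC and 0.316, 0.323 and 0.324 in MPC-PTX, each MPC-PTX library lying below each MPC library.

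**Figure D2:**
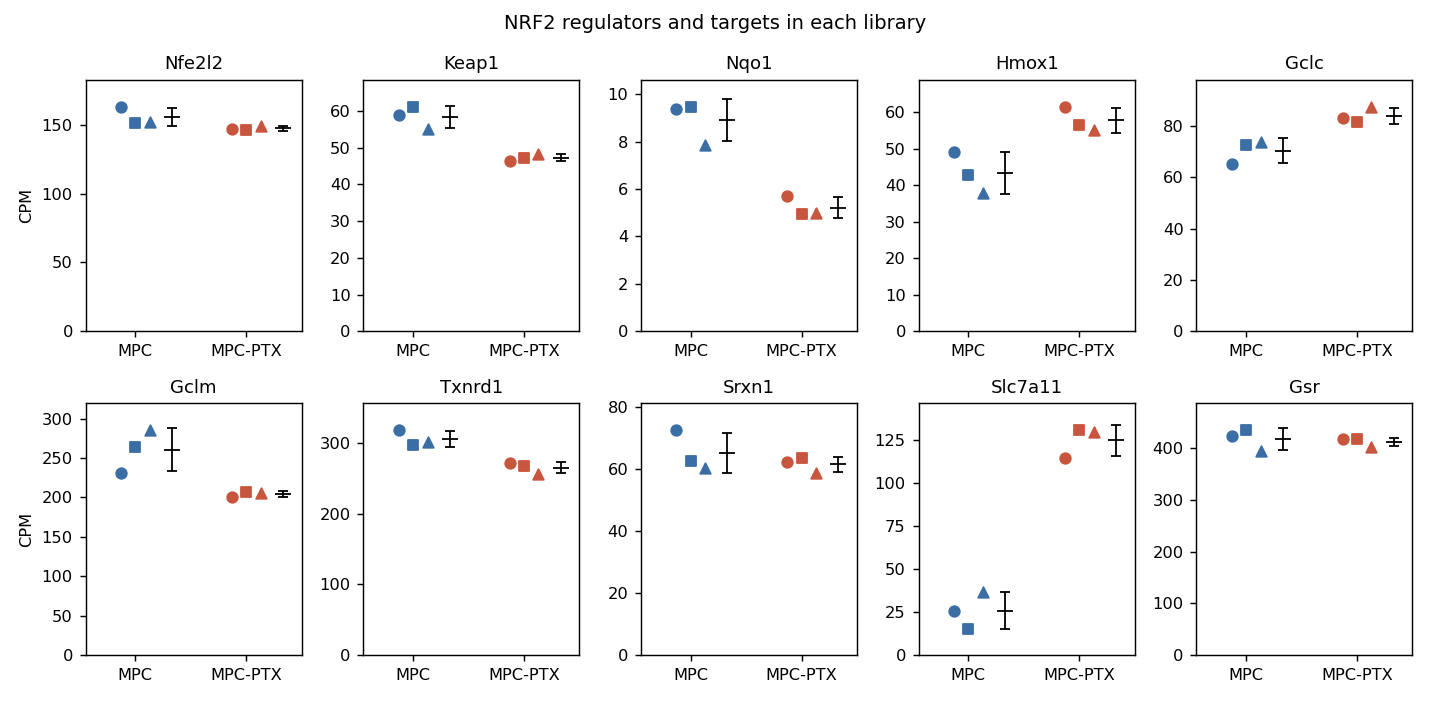
Each panel shows 1 gene in CPM (axis from 0) in the 3 MPC libraries (blue) and the 3 MPC-PTX libraries (red), with circle, square and triangle for replicates 1, 2 and 3. Black bars give the mean and SD of each line. Slc7a11 separates most, at 15.3 to 36.7 CPM against 114 to 130.4, whereas the libraries overlap in Srxn1 and Gsr.

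Slc7a11 (chromosome 3, 49892526 to 50443614, minus strand) encodes the light chain of the cystine and glutamate exchanger and showed the largest difference of the 10 genes. It had 477, 296 and 765 counts in MPC and 2675, 2893 and 2176 in MPC-PTX, or 25.3, 15.3 and 36.7 CPM against 114, 130.4 and 129. The lowest MPC-PTX library was well above the highest MPC library. The means of 25.8 ± 10.8 and 125 ± 9.01 CPM gave a 4.83-fold higher level, or a log2 fold change of 2.27 (SE 0.29, adjusted p = 0.00182 by edgeR). Within MPC the gene varied widely, and its highest library was replicate 3, the one that stands apart. The Slc7a11 transcript is long and poor in GC, with 9223 bases and 40.71% GC in its longest form against medians of 3413 bases and 49.77% over tested genes. Once each library was corrected for GC content and length, the log2 fold change was 1.94, and without MPC replicate 3 it was 2.57. In all 14 alternatives its adjusted p stayed at or below 0.0107, the highest coming from the edgeR test without MPC-PTX replicate 2. The 5 other genes tested within 1 Mb showed a median log2 fold change of 0.10.

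The partner of Slc7a11 is the heavy chain encoded by Slc3a2, which also serves other amino acid transporters. It was at 306, 204 and 181 CPM in MPC and 326, 323 and 308 in MPC-PTX. All MPC-PTX libraries were above the MPC libraries, though MPC replicate 1 came close to them, and the log2 fold change of 0.47 did not pass the test (SE 0.19, adjusted p = 0.104 by edgeR). Without MPC replicate 1 it was called higher, at 0.73 with an adjusted p of 0.000498, and it was called as well after the correction for GC content and length, at 0.52 with an adjusted p of 0.0194 by edgeR. In 10 of 14 alternatives Slc3a2 stayed uncalled, and its log2 fold change ran from 0.28 to 0.73. Counts of Slc7a11 were 0.0829, 0.0747 and 0.203 of those of Slc3a2 in MPC and 0.350, 0.404 and 0.420 in MPC-PTX. The RNA of the light chain thus gained on that of the heavy chain by 3.62-fold. This ratio was not corrected for GC content and length, which were 40.71% and 9223 bases in Slc7a11 and 53.39% and 2813 bases in Slc3a2.

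Gclc (chromosome 9, 77754535 to 77794485, plus strand), the catalytic subunit, and Gclm (chromosome 3, 122245557 to 122270732, plus strand), the modifier subunit of the same ligase, moved in opposite directions. Gclc was at 65.0, 72.6 and 73.7 CPM in MPC and 83.0, 81.4 and 87.5 in MPC-PTX, a 1.19-fold higher level with a log2 fold change of 0.25 (SE 0.08, adjusted p = 0.0419 by edgeR). Gclm was at 231, 264 and 285 CPM in MPC and 199.8, 207 and 206 in MPC-PTX, a 1.27-fold lower level with a log2 fold change of -0.35 (SE 0.08, adjusted p = 0.0181 by edgeR). In neither gene did the lines overlap. The Gclc call was near the threshold and was lost in 9 of 14 alternatives, DESeq2 among them, while that of Gclm was lost in 4. The count of Gclc was 0.281, 0.274 and 0.259 of that of Gclm in MPC and 0.416, 0.394 and 0.425 in MPC-PTX, a 1.52-fold higher ratio. For the ratio of each of the 3 pairs of genes given here, the exact two-sided permutation test over the 6 libraries gave p = 0.1, the smallest that 3 libraries against 3 allow, and the pairs were chosen after their values were seen. None of these ratios was corrected for GC content and length.

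Gsr (chromosome 8, 33652523 to 33698163, plus strand), the reductase that returns oxidized glutathione to its reduced form, was nearly level. Its CPM of 424, 434 and 395 in MPC and 417, 417 and 402 in MPC-PTX overlapped, and the log2 fold change was -0.02 (SE 0.06, adjusted p = 0.829 by edgeR). It turned to 0.02 when libraries were scaled by their size alone. The 11 genes tested within 1 Mb of Gsr showed a median log2 fold change of 0.40, and 8 of them were above 0.

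**Figure D3:**
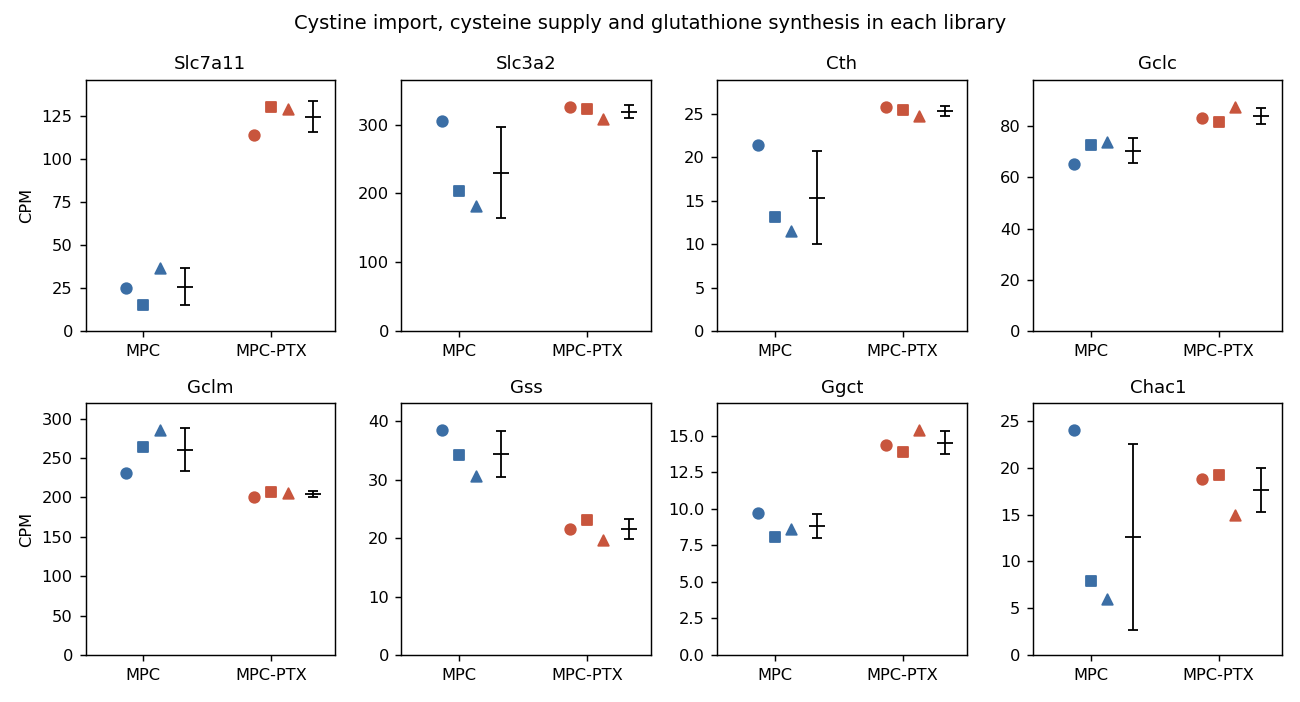
Panels follow cystine import, cysteine supply and glutathione synthesis and turnover, in CPM (axis from 0), with MPC libraries in blue, MPC-PTX libraries in red, circle, square and triangle for replicates 1, 2 and 3, and the mean and SD in black. Slc7a11, Cth, Gclc and Ggct were higher in MPC-PTX, and Gclm and Gss were lower. Slc3a2 and Chac1, which did not pass the test, have MPC replicate 1 far above the other MPC libraries.

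Nqo1 (chromosome 8, 107388225 to 107403206, minus strand), a quinone reductase often read as a sign of NRF2 activity, was lower. It had 177, 184 and 164 counts in MPC and 134, 110 and 84 in MPC-PTX, the lowest counts of the 10 genes, or 9.40, 9.48 and 7.88 CPM against 5.72, 4.96 and 4.99. The lines did not overlap, and the means of 8.92 ± 0.904 and 5.22 ± 0.433 CPM gave a 1.70-fold lower level with a log2 fold change of -0.77 (SE 0.13, adjusted p = 0.00504 by edgeR). Together with Slc7a11 it was 1 of 2 genes called in all 14 alternatives, where its highest adjusted p was 0.0332. Its neighbours went the other way, as 15 of 18 genes tested within 1 Mb of Nqo1 had a log2 fold change above 0, with a median of 0.29.

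Hmox1 (chromosome 8, 75093621 to 75100589, plus strand), the inducible haem oxygenase, was higher. It was at 49.2, 42.8 and 37.8 CPM in MPC and 61.5, 56.5 and 55.1 in MPC-PTX. The lines did not overlap, with means of 43.3 ± 5.68 and 57.7 ± 3.35, a 1.33-fold higher level and a log2 fold change of 0.42 (SE 0.11, adjusted p = 0.0262 by edgeR). Nqo1, Hmox1 and Gsr share chromosome 8, on which 663 genes were tested, with a median log2 fold change of 0.26. The values of Hmox1 and of its chromosome are given side by side, and the part of the chromosome in the difference was not tested.

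Txnrd1 (chromosome 10, 82833951 to 82897712, plus strand), the cytosolic thioredoxin reductase, was slightly lower, at 318, 297 and 302 CPM in MPC and 271, 267 and 257 in MPC-PTX. The log2 fold change was -0.21 (SE 0.06, adjusted p = 0.0326 by edgeR), and the call was lost in 7 of 14 alternatives although the lines did not overlap. The median over the 549 tested genes of chromosome 10 was -0.18. Srxn1 (chromosome 2, 152105516 to 152111376, plus strand), the sulfiredoxin that repairs overoxidized peroxiredoxins, was at 72.4, 62.6 and 60.3 CPM in MPC and 62.2, 63.4 and 58.7 in MPC-PTX. These overlapped, with a log2 fold change of -0.08 (SE 0.09, adjusted p = 0.521 by edgeR).

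In 8 of the 10 genes the libraries of the lines did not overlap, 3 with MPC-PTX above and 5 with it below. Of all genes tested, 46.9% had no overlap, 24.2% with MPC-PTX above and 22.7% with it below. The spread was larger in MPC than in MPC-PTX for each of the 10 genes, with a median SD of 8.29% of the mean against 3.28%. This was not particular to them, since the MPC libraries also differed more across the genes tested (chi-square values per gene of 15 to 61.1 against 1.83 to 3.36). The share of all genes with a larger spread in MPC was not taken.

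Levels of different genes were compared as CPM per kilobase of exon, with all annotated exons of a gene merged. Merged exons can be much longer than the longest transcript, as in Txnrd1 (7086 against 3622 bases) and Slc7a11 (13922 against 9223). Close places in the order below therefore depend on the length used, and no other length was tried. In MPC, Gsr was highest at 152 CPM per kilobase, followed by Txnrd1 at 43.1, Gclm at 41.4 and Nfe2l2 at 40.9, whose libraries overlapped from 1 gene to the next. Hmox1 at 24.7 and Srxn1 at 23.1 overlapped as well, and Gclc at 18.7, Keap1 at 12.4, Nqo1 at 5.74 and Slc7a11 at 1.85 followed apart from each other. In MPC-PTX, Gsr was again highest at 149.6, before Nfe2l2 at 38.8 and Txnrd1 at 37.4. Hmox1 at 33.0 and Gclm at 32.5 overlapped there, as did Gclc at 22.3 and Srxn1 at 21.8. Keap1 stood at 10.1, and Slc7a11 at 8.95 was above Nqo1 at 3.36, so the lowest place passed from Slc7a11 to Nqo1.

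Around these 10 genes, 7 lists of other genes of the pathway held 81 genes, of which 73 were tested. Of the 73, 12 were higher, 16 were lower and 45 did not pass the test, beside 14.1% and 15.6% of all genes called in the same directions, and their median log2 fold change was -0.03. Without MPC replicate 3 the count was 17 higher and 29 lower, where 25.5% and 27.2% of all genes were called. Of the 28 calls, 14 held in every alternative and 14 were lost in 1 or more. No list was tested against another.

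**Figure D4:**
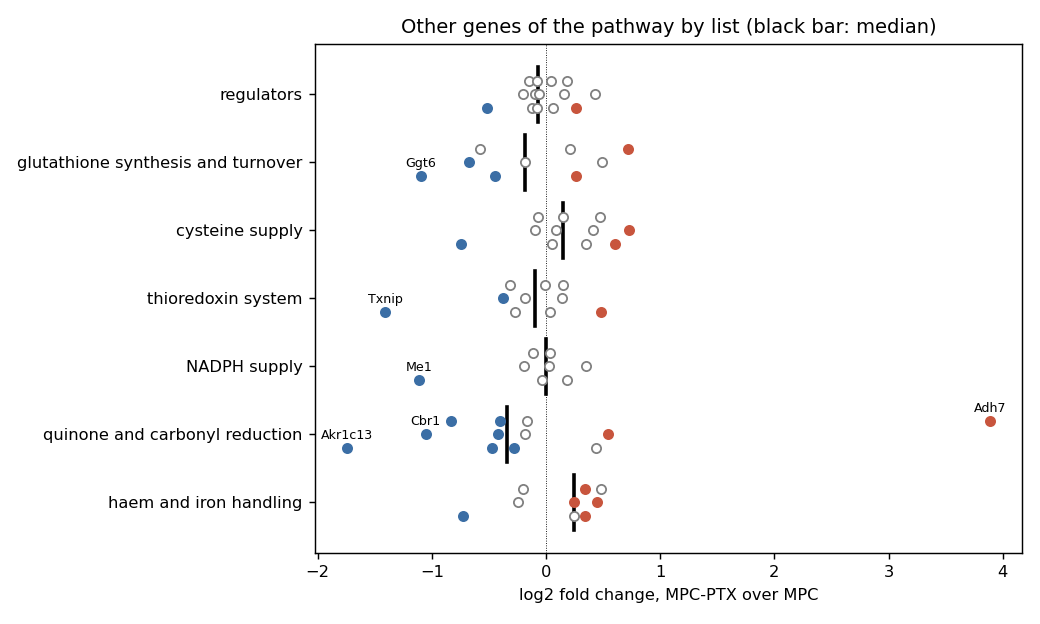
Each point is 1 tested gene of a list at its log2 fold change, MPC-PTX over MPC, red for called higher, blue for called lower and open for not called, and black bars mark the median of a list. Names are given where the absolute log2 fold change of a called gene is above 1. Quinone and carbonyl reduction has 7 genes called lower and Adh7 at 3.89, and haem and iron handling has 4 called higher. Over all genes tested, 14.1% were called higher and 15.6% lower.

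Among the regulators, 1 of 14 was higher, against 14.1% of all genes, 1 was lower, against 15.6%, and 12 did not pass. The median of the list was -0.07. Nfe2l1, which encodes the NRF2 relative NRF1, was higher by 0.27 on the log2 scale (adjusted p = 0.00956 by edgeR), at 282, 276 and 267 CPM in MPC and 333, 334 and 325 in MPC-PTX. Nfe2l3, for the relative NRF3, fell by 0.52 (adjusted p = 0.00497 by edgeR), from 48.5, 53.5 and 58.9 CPM to 37.2, 38.1 and 37.2. The call of Nfe2l1 was lost without MPC-PTX replicate 1 or 2 (adjusted p of 0.0602 and 0.0624 by edgeR), and that of Nfe2l3 held in all 14 alternatives. Thus the related factors went in opposite directions while Nfe2l2 did not pass. The small MAF genes Maff, Mafg and Mafk, the repressor Bach1 and the KEAP1 partner Cul3 were not called, with log2 fold changes from -0.09 to 0.43. The most abundant regulator was Sqstm1, for the autophagy receptor p62 that can hold KEAP1, at 529, 466 and 405 CPM in MPC and 494, 481 and 471 in MPC-PTX, a log2 fold change of 0.05.

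In glutathione synthesis and turnover, 9 of 14 genes were tested, with a median of -0.18. Of these, 2 were higher, against 14.1% of all genes, 3 were lower, against 15.6%, and 4 did not pass. Gss, the synthetase that adds glycine in the second step, was 1.60-fold lower, at 38.5, 34.2 and 30.7 CPM in MPC and 21.6, 23.2 and 19.7 in MPC-PTX (log2 fold change -0.68, adjusted p = 0.00431 by edgeR). Ggt6, of the gamma-glutamyltransferase family, fell from 7.01, 7.37 and 6.10 CPM to 2.90, 3.20 and 3.50, a log2 fold change of -1.10 (adjusted p = 0.00164 by edgeR). Glrx, a glutaredoxin, was lower as well, at -0.45, a call lost in 4 alternatives (adjusted p up to 0.116 by edgeR, without MPC-PTX replicate 1). Of the higher genes, Ggct, a cyclotransferase that acts on gamma-glutamyl amino acids, was 1.65-fold higher, at 9.72, 8.09 and 8.65 CPM against 14.4, 13.9 and 15.4. Glo1, a glyoxalase that uses glutathione, was higher by 0.26, but its call was kept in only 5 of 14 alternatives, and its sign turned to -0.05 after the correction for GC content and length. Lap3, an aminopeptidase and the most abundant gene of the list, had a log2 fold change of 0.21 and was not called. Chac1, which breaks down glutathione and is a known ATF4 target, was at 24.0, 7.88 and 5.96 CPM in MPC and 18.8, 19.2 and 15.0 in MPC-PTX. Here MPC replicate 1 was above every MPC-PTX library, and the log2 fold change was 0.49 (adjusted p = 0.488 by edgeR) with it and 1.36 (adjusted p = 0.00175 by edgeR) without it. That was the only 1 of 14 alternatives to call Chac1, and its log2 fold change ran down to 0.11 among them.

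Cysteine supply had 11 of 13 genes tested, with a median of 0.15. Of these, 2 were higher, against 14.1% of all genes, 1 was lower, against 15.6%, and 8 were not called. Cth, which makes cysteine from cystathionine, was at 21.4, 13.1 and 11.5 CPM in MPC and 25.8, 25.4 and 24.7 in MPC-PTX, a log2 fold change of 0.73 whose adjusted p of 0.0490 by edgeR was next to the threshold. Cbs, the enzyme 1 step before it, was lower, at 8.50, 7.58 and 5.52 CPM against 4.10, 3.83 and 4.99, a log2 fold change of -0.75 (adjusted p = 0.0268 by edgeR). Slc1a5, a transporter of glutamine and other neutral amino acids, was higher by 0.60 (adjusted p = 0.0245 by edgeR). The call of Cth was lost in 7 of 14 alternatives, with an adjusted p of up to 0.154 without MPC replicate 2, that of Slc1a5 in 4 (up to 0.0899, without MPC-PTX replicate 1) and that of Cbs in 3 (up to 0.109, without MPC-PTX replicate 2). Ahcy, which makes homocysteine and was the most abundant, had 0.05 and was not called. In Slc3a2, Cth, Slc1a5 and Chac1 alike, the highest MPC library was replicate 1, and in Slc7a11 it was replicate 3. Replicate 1 was also the highest MPC library in Ahcy, Prdx1, Sqstm1, Hmox1 and Srxn1, so this was not particular to those genes. The share of all genes with this order was not taken.

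For the thioredoxin system, 1 of 10 genes was higher, against 14.1% of all genes, 2 were lower, against 15.6%, and 7 did not pass. The median was -0.10. Txnip, the inhibitor that binds thioredoxin, showed the largest fall of that list, from 126, 189 and 173 CPM in MPC to 64.0, 61.6 and 58.0 in MPC-PTX, a 2.65-fold lower level (log2 fold change -1.41, adjusted p = 0.000683 by edgeR). Prdx1, a peroxiredoxin and the most abundant gene of the list, was at 964, 858 and 746 CPM in MPC and 651, 663 and 663 in MPC-PTX, a log2 fold change of -0.38 (adjusted p = 0.0228 by edgeR). This call was lost in 4 alternatives, with an adjusted p of up to 0.0919 without MPC-PTX replicate 1. Its counts, like those of Fth1, may include reads shared with near-identical copies in the genome. Txnrd3, a thioredoxin reductase best known from testis, was higher by 0.48 (adjusted p = 0.00663 by edgeR), opposite to Txnrd1, and thioredoxin itself, Txn1, had a log2 fold change of -0.01.

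The NADPH supply list had 1 called gene of 8, against 29.7% of all genes. Me1, cytosolic malic enzyme, was at 301, 327 and 327 CPM in MPC and 146, 147 and 149 in MPC-PTX, a 2.16-fold lower level (log2 fold change -1.11, adjusted p = 3.54e-05 by edgeR). The oxidative pentose phosphate genes G6pdx and Pgd, at -0.03 and 0.19, and the transketolase Tkt, the most abundant gene of the list, at -0.19, were not called. Nnt stands in 2 rows of the table, of which 1 had 0 counts in every library. The other, which was tested and not called, had only 13 to 20 counts in a library, so its value is uncertain.

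Quinone and carbonyl reduction had the largest share of called genes of the 7 lists. The list also holds enzymes of other kinds, such as an epoxide hydrolase and glutathione transferases. In it, 2 of 12 genes were higher, 7 were lower and 3 were not called, with a median of -0.34 and 10 of 12 without overlap. Over all genes tested, 29.7% were called, 15.6% as lower, and 46.9% had no overlap. The aldo-keto reductase Akr1c13 was 3.34-fold lower, at 47.5, 62.8 and 62.6 CPM in MPC and 16.5, 19.1 and 16.1 in MPC-PTX (log2 fold change -1.74, adjusted p = 0.000167 by edgeR). The carbonyl reductase Cbr1 was 2.08-fold lower, at 61.8, 71.3 and 67.4 CPM against 33.3, 32.6 and 30.6 (log2 fold change -1.05, adjusted p = 0.000172 by edgeR). Like Nqo1, its relative Nqo2 was lower, at -0.40, as were Ugdh (-0.83), Cbr3 (-0.47), Akr1b8 (-0.43) and the epoxide hydrolase Ephx1 (-0.28). The call of Ephx1 was lost in 6 alternatives (adjusted p up to 0.145 by edgeR, without MPC-PTX replicate 2), that of Nqo2 in 1 (0.0579, without MPC-PTX replicate 2) and that of Cbr3 in 1 (0.0501, without MPC-PTX replicate 3). Reads of Akr1c13, Akr1b8 and Gstm1 may be shared with close paralogues, so their counts are uncertain. Against this direction, Adh7, an alcohol dehydrogenase of the stomach that also oxidizes retinol, was 14.8-fold higher, at 4.09, 1.96 and 1.20 CPM in MPC and 33.3, 37.6 and 35.9 in MPC-PTX (log2 fold change 3.89, adjusted p = 0.000480 by edgeR). Its size depended on the low MPC libraries, with a log2 fold change of 4.50 without MPC replicate 1 and 3.51 without MPC replicate 3, and it was called in all alternatives run. Ptgr1, a prostaglandin reductase, was higher by 0.54 (adjusted p = 0.00357 by edgeR). The most abundant gene, the glutathione transferase Gsta4, had a log2 fold change of -0.16 and was not called.

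In haem and iron handling, 9 of 10 genes were tested, with a median of 0.25. Of these, 4 were higher, against 14.1% of all genes, 1 was lower, against 15.6%, and 4 did not pass. Fth1, the ferritin heavy chain and most abundant gene of the list, was at 750.3, 691 and 613 CPM in MPC and 938, 928 and 927 in MPC-PTX, a log2 fold change of 0.44 (adjusted p = 0.00677 by edgeR). The haem transporter Slc48a1 (0.35), the biliverdin reductase Blvrb (0.34) and the ferrochelatase Fech (0.25) were higher with Hmox1, although each of these 3 calls was lost in at least 7 of 14 alternatives. The iron exporter Slc40a1 went the other way, from 32.3, 46.3 and 51.5 CPM to 26.9, 26.2 and 25.4, a log2 fold change of -0.73 (adjusted p = 0.0150 by edgeR), a call lost in 4 alternatives (adjusted p up to 0.0663, without MPC-PTX replicate 3).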

How the data were processed

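Poly-A RNA of 3 MPC and 3 MPC-PTX libraries was sequenced. The authors filtered reads with fastp 0.22.0, aligned them with HISAT2 and deposited raw counts per gene for each library, neither normalized nor pooled. The genome release, annotation, counting tool and use of strand are not given in the sources used here, so counts of near-identical, overlapping or antisense genes are uncertain. The 6 sample tables held the same values as the series table. The series table held 21959 genes, of which 51 had no gene name and were kept.

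After a filter on low counts (filterByExpr, minimum count 10, grouped by line) and TMM scaling, the 2 lines were compared without covariates in edgeR 4.0.16 (glmQLFit, robust, then glmQLFTest; R 4.3.3, limma 3.58.1) over 11795 genes. P-values were adjusted by Benjamini-Hochberg over all genes tested, and an adjusted p below 0.05 was called. The standard error is the size of the log2 fold change divided by the square root of the F statistic. The code was tested on simulated data.

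The 10 genes, the lists and the rule for naming genes were chosen with earlier results of these data known. The rule named the 10 genes, Trp53 and Cdh1, and from each list its most abundant gene and those called with an absolute log2 fold change above 1. Slc3a2, Chac1, the other list genes named with values and the 3 ratios were added after their values were seen.

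Ensembl identifiers tied 11776 of the tested genes to GENCODE M21 (GRCm38), which gave positions, GC content and lengths, and promoter windows were from RefSeq (GRCm38.p6).

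The alternatives were DESeq2 1.42.0, edgeR with the size factors of DESeq2 or with unscaled library sizes, no filter, at least 10 counts in every library, a block by replicate number, leaving out 1 library at a time and, for counts of calls, the threshold of the study. A loess fit per library on GC content and length (span 0.3, with and without the block) was added after the data were seen. Depth was 16574580 to 23148182 counts per library, and errors are the spread between libraries.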

Additional observations from a re-analysis of the deposited data

How the results depend on the processing

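Over 45 named genes and 14 alternatives, 513 of 630 values kept their direction and their side of the threshold, 99 lost and 12 gained a call, and 6 changed sign. For the 10 NRF2 genes these were 109, 28, 1 and 2 of 140. The changes of sign were Gsr at 0.02 with the library size alone and 0.01 without MPC replicate 2, Glo1 at -0.05 after the GC and length correction and -0.01 with the block added, and Sqstm1 at -0.10 and Ahcy at -0.10 without MPC replicate 3, with Glo1 alone of these called in the main analysis. With 1 library left out, Gsr ran from -0.11 to 0.01, Sqstm1 from -0.10 to 0.15 and Ahcy from -0.10 to 0.17. The cause was not tested.

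Of the 10 genes, leaving out each library in turn gave 1 to 3 higher and 1 to 5 lower, and the threshold of the study gave 1 higher and 0 lower, since it asks for a larger change. The other alternatives gave 2 or 3 higher and 3 or 4 lower. Of the 73 list genes, leaving out each library gave 5 to 18 higher and 10 to 29 lower, and the threshold of the study gave 1 higher and 5 lower. The most were higher without MPC replicate 1 (18, beside 18.4% of all genes). The fewest were higher without MPC-PTX replicate 1 or 2 (5 each, beside 6.66% and 6.98% of all genes). Without MPC replicate 2 or MPC-PTX replicate 3 the count was 6, beside 7.88% and 6.99%. The most were lower without MPC replicate 3 (29, beside 27.2%) and the fewest without MPC-PTX replicate 2 (10, beside 9.03%). DESeq2 size factors in edgeR gave 7 list genes higher, beside 12.2% of all genes, and at least 10 counts in every library gave 7, beside 11.3%. Over all genes, calls were 1668 higher and 1841 lower in the main analysis, 3003 and 3212 without MPC replicate 3, and 786 to 929 and 1065 to 1213 without MPC replicate 2 or 1 of the MPC-PTX libraries.

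Whether replicate numbers pair the samples was not settled. The correlations of same-numbered deviations were 0.151, -0.0227 and 0.173, and those of other pairs ran from -0.228 to 0.153. MPC-PTX replicate 1 was about as close to MPC replicate 2 (0.153) as to MPC replicate 1. The trend of a library's deviation with GC content fell from replicate 1 to 3 in both lines. It was 0.49, 0.38 and -0.61 in MPC and 0.30, -0.011 and -0.30 in MPC-PTX (Spearman). With the replicate block, 2 of the 10 genes were higher and 3 lower, and 13 and 15 of the list genes, beside 15.2% and 14.6% of all genes.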
